A study of Mus musculus with 358 samples.

Results

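Kidney and liver of adult mice of the strain labelled B6 were compared on 2-colour arrays. The 24 samples used here, of 90 biological samples in the series, are all those labelled B6 kidney or liver at an age of 8 weeks or 6 months. They make up 8 groups of 3 biological replicates, namely females and males of both ages in each tissue, so that 12 kidneys stood against 12 livers. The labels give these mice no genotype, treatment or agent beyond the strain, and they do not say whether a replicate was a single animal or a pool. Adult B6 brain (12 samples) is used only for levels given beside kidney and liver. Each array carried total RNA of 1 sample in Cy3 or Cy5 and Universal Mouse Reference RNA (Stratagene), a mixture of RNA from mouse cell lines, in the other dye. A level is log2 of tissue over reference, centred on the median of its array and averaged over the arrays of each dye and then over both dyes. A difference is the mean of the 4 kidney groups minus the mean of the 4 liver groups on the log2 scale, so that 1 is 2-fold and a positive value is higher in kidney. It is given with its standard error (SE) or with limma's p-value, to which the Benjamini-Hochberg adjustment was applied across every probe tested, and genes with an adjusted p under 0.05 count as called.

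The kidney filters plasma in the glomerulus and then takes back most of the filtrate along the nephron. The proximal tubule recovers sugars, amino acids, phosphate and filtered protein and secretes organic anions and cations. The thick ascending limb, the distal tubule and the collecting duct then adjust salt, calcium, acid and water. The liver is mostly hepatocytes, which secrete the proteins of plasma, make bile acids and lipoproteins, store glycogen, detoxify ammonia through the urea cycle and oxidise drugs with cytochromes P450. Both organs are rich in mitochondria and peroxisomes, and both can make glucose.

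The 95 arrays of these samples (48 with tissue in Cy3, 47 in Cy5) each gave a value at 10088 to 10708 of 12304 probes. They were averaged to 1 value per sample, so that the number of samples (24), not of arrays, limits the precision. Arrays of 1 sample correlated across probes at a median of 0.971 within a dye (lowest 0.745) and 0.77 between dyes (0.4 to 0.96). Both 0.745 and 0.96 involve array 1 of the 8-week female liver 1, labelled Cy3, and without it the lowest value within a dye was 0.875 and the highest between dyes 0.877. Correlations between samples, which share probes and the reference, ran from 0.746 to 0.964 among kidneys, from 0.779 to 0.964 among livers and from 0.466 to 0.704 between a kidney and a liver. No signal intensity was used here, so a level near 0 can mean as much RNA as in the reference or no signal in either channel. In 6 samples at 6 months (female 3, male 2 and male 3 of both tissues), 32 probes lay within 1 of 0 while the other 6-month samples of a tissue differed from them by more than 2 on average. The 8-week male kidney 1 lay more than 1 above all other kidneys at 114 probes and the 8-week female liver 3 above all other livers at 71. The 8-week female kidney 2 carried adrenal transcripts, which are given with the markers of other cell types. Nothing in the labels says that replicates came from separate animals, so p-values measure only the spread between these samples, which may be technical.

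Across the transcriptome the tissues differed widely, with more genes higher in kidney, while more of the genes at least 8-fold apart were higher in liver. Of 10196 probes tested, 4706 were called (46.2%), 2503 higher in kidney (24.5%) and 2203 higher in liver (21.6%). Of the 6377 genes they cover, each taken by 1 probe, 3115 were called (48.8%), of which 1880 were higher in kidney (29.5%) and 1235 higher in liver (19.4%). At least 2-fold and called were 537 genes in kidney (8.42%) and 318 in liver (4.99%), at least 4-fold 158 and 154, and at least 8-fold 68 and 95. In 448 genes (7.03%) every kidney lay above every liver, and in 253 genes (3.97%) every liver lay above every kidney. The median difference over all genes was 0.02 and the median absolute difference 0.24, so most calls were of small size. Without the 6 samples at 6 months 1443 and 738 genes were called, and without both 8-week kidneys 1798 and 1134. Of 663 genes with several probes, 22 had probes called in opposite directions.

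**Figure D1:**
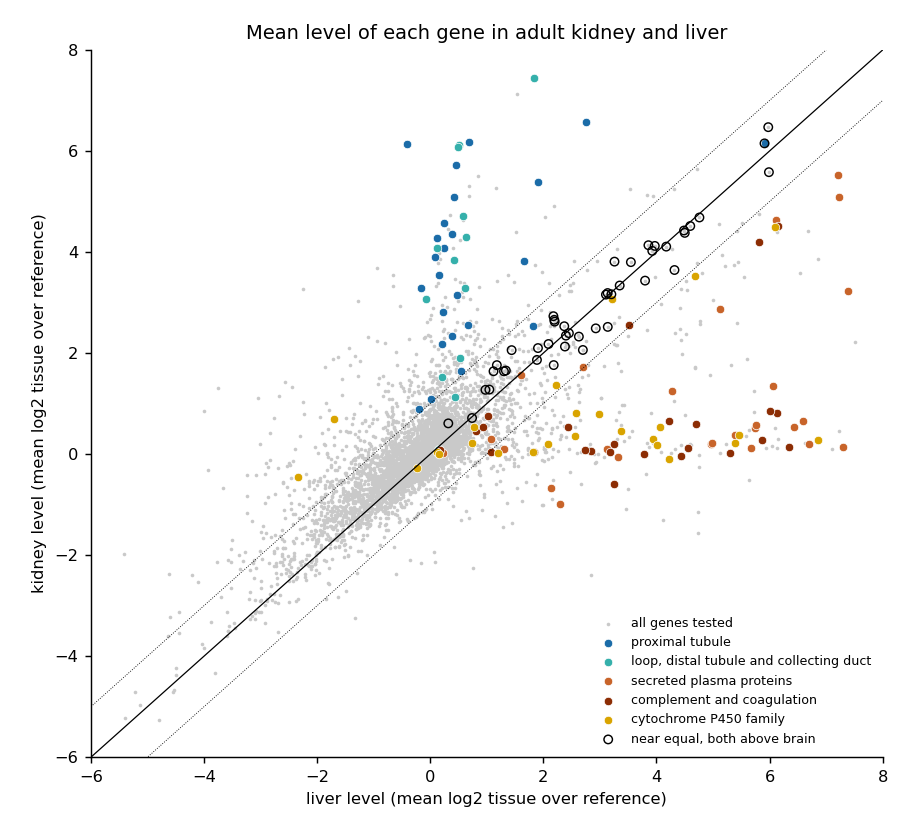
Mean level of each gene tested in kidney (vertical axis) against liver (horizontal axis), both as log2 of tissue over reference; the solid line is equality, dotted lines are 2-fold, colours mark 5 gene lists and open circles mark genes at least 4-fold over brain in both tissues and close to equal between them. Most tubule genes lie above the lines at liver levels near 0, and most plasma protein and complement genes lie below the lines at kidney levels near 0. Both axes extend well below 0.

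The genes furthest above liver in kidney included known products of tubule cells, and 7 of the 15 named were on a tubule list. The rule for names took the 15 called genes with the largest difference, the same sign in both sexes at both ages and no overlap between tissues. Napsa, the aspartic protease of proximal tubule lysosomes, had the largest difference. It ranged from 5.04 to 6.87 in kidneys (median 6.16) and from -1.23 to 0.52 in livers (median -0.41), a difference of 6.54 ± 0.175 (SE, adjusted p = 8.04e-17), or 93.4-fold. Every kidney lay far above every liver. Klk1, tissue kallikrein of the connecting tubule, ranged from 6.83 to 7.94 in kidneys (median 7.49) and from 0.50 to 2.93 in livers (median 2.04), a difference of 5.62 ± 0.241 (49.3-fold). Egf, whose precursor is made in large amounts by the thick ascending limb and distal tubule, ranged from 5.26 to 6.80 in kidneys (median 6.17) and from -0.07 to 1.16 in livers (median 0.38), or 48.4-fold. Kl, which encodes klotho, the co-receptor that lets the tubule respond to phosphate-lowering FGF23, ranged from 5.46 to 6.59 in kidneys (median 6.14) and from 0.04 to 1.07 in livers (median 0.41), or 48.2-fold. In all 4 genes the lowest kidney lay well above the highest liver.

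The vitamin D receptor gene, Vdr, lay on both sides of the reference. Its level was 2.23 to 3.74 in kidneys (median 3.43) and -3.06 to -1.46 in livers (median -2.28), a difference of 5.53 ± 0.157 (adjusted p = 1.88e-16, 46.3-fold). Here the livers were below the reference RNA and not near it, though without signal intensities the liver signal itself cannot be judged. The same held for Ndrg1, a stress-responsive gene, at 0.19 to 2.60 in kidneys and -4.46 to -2.43 in livers (33.6-fold), and for the surface glycoprotein gene Cd24a, at -0.30 to 1.74 and -4.68 to -2.86 (28.9-fold). The basolateral organic anion transporter gene Slc22a8 (5.14 to 6.77 in kidneys, 0.13 to 1.33 in livers, 44.9-fold) and Slc7a9, the light chain of the cystine and dibasic amino acid carrier (4.90 to 6.54 and 0.02 to 1.11, 38.6-fold), came next among the transporters. The brush border metalloprotease gene Mep1a (25.4-fold) and Alpl, the alkaline phosphatase also found on the brush border (20.9-fold), were among the enzymes. Jup, which encodes the junction protein plakoglobin, differed by 4.43 and Spink1, a trypsin inhibitor gene, by 4.66. The probes named Dusp2 (5.59) and Rfwd3 (4.63) complete the 15, with names from a platform annotation that can be old. Dusp2 followed Klk1 across samples, at 6.63 to 7.66 against 6.83 to 7.94 in kidneys and 0.27 to 2.60 against 0.50 to 2.93 in livers. Whether both measure 1 transcript was not tested, so they may not be separate members.

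**Figure D2:**
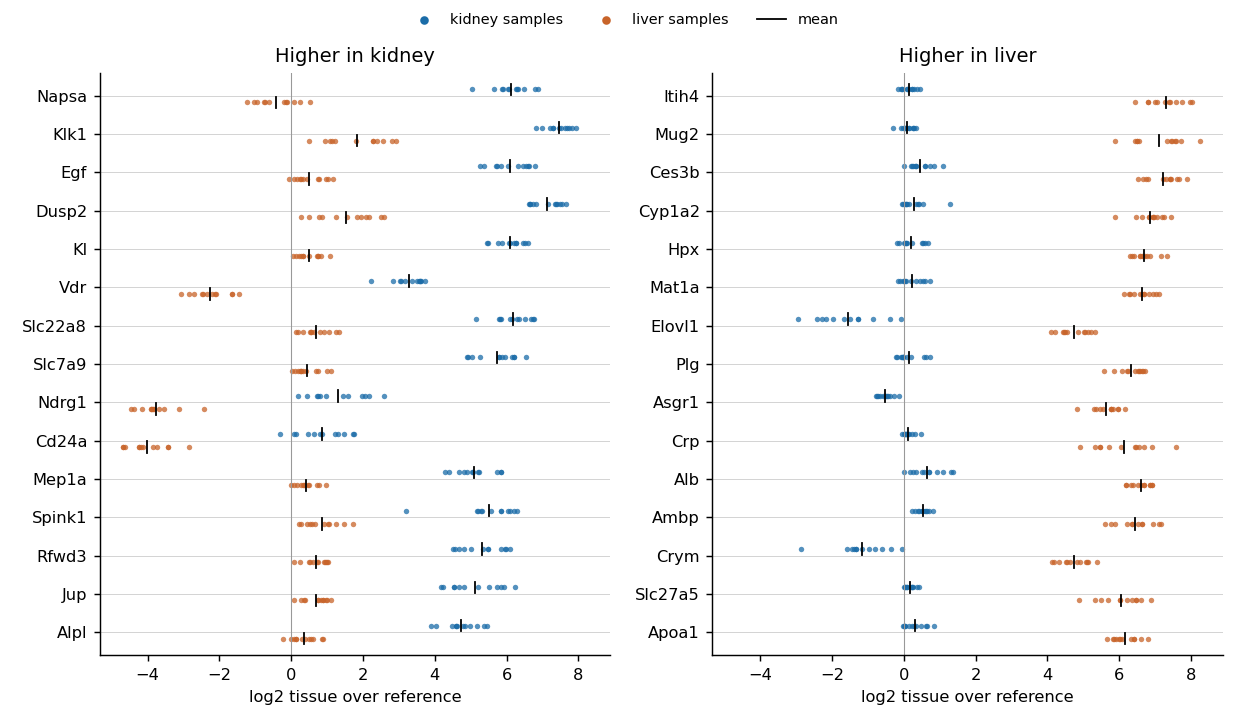
Level in each sample, log2 of tissue over reference, of the 15 genes furthest above liver in kidney and the 15 furthest above kidney in liver; kidneys are blue, livers orange, and black bars are means of 12 samples. No kidney overlaps a liver for any of the 30 genes, since the rule required it, and the low tissue lies near 0 for most of them.

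Genes of the proximal tubule stood higher in kidney almost without exception. Of 42 genes on that list 25 were on the array and tested, of which 23 were higher in kidney and 1 higher in liver, against 29.5% and 19.4% of all genes. Of these, 22 were at least 2-fold higher in kidney and 14 did not overlap between tissues, and the median difference was 3.37 against 0.02 over all genes. The median level of the list per sample was 2.85 to 4.34 in kidneys and 0.06 to 0.57 in livers. The carriers of the apical membrane were prominent. Slc6a19, the carrier of neutral amino acids mutated in Hartnup disorder, ranged from 3.62 to 5.29 in kidneys (median 4.58) and from 0.01 to 0.51 in livers (median 0.21), or 20.1-fold. Slc3a1, the heavy chain partner of Slc7a9, ranged from 5.79 to 7.12 in kidneys (median 6.63) and from 1.88 to 4.19 in livers (median 2.53), or 14.1-fold. The sulfate carrier gene Slc13a1 was 15.6-fold higher.

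Endocytosis and organic ion secretion showed the same direction. Lrp2, which encodes megalin, the receptor that retrieves filtered protein, ranged from 2.74 to 5.10 in kidneys (median 4.52) and from -0.45 to 0.67 in livers (median 0.08), or 17.7-fold. Slc22a6, the para-aminohippurate transporter gene, ranged from 2.62 to 4.52 in kidneys (median 3.57) and from 0.03 to 0.47 in livers (median 0.15), a difference of 3.37 ± 0.12 (adjusted p = 3.9e-15, 10.4-fold). Neither gene overlapped between tissues. The organic cation transporter gene Slc22a2 (14.4-fold) spread more widely among kidneys, from 2.54 to 6.30, and is described with the ages. Slc27a2, an acyl-CoA synthetase of very long chain fatty acids that is listed here as a proximal gene, was not called. It ranged from 5.70 to 7.03 in kidneys and from 5.10 to 6.26 in livers, with a difference of 0.24 (adjusted p = 0.213). The exception in the other direction was Cyp4b1, at -0.16 (adjusted p = 0.02).

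Genes of the loop of Henle, the distal tubule and the collecting duct behaved alike. Of 40 on that list 14 were tested, with 12 higher in kidney, none higher in liver, 11 at least 2-fold, 8 without overlap and a median difference of 3.29. Of all genes 29.5% were higher in kidney, 8.42% at least 2-fold and 7.03% without overlap. Fxyd2, the regulatory subunit of the sodium pump, ranged from 3.55 to 4.57 in kidneys (median 3.98) and from -0.27 to 0.75 in livers (median 0.15), or 15.4-fold. Slc26a4, the anion exchanger pendrin of intercalated cells, ranged from 2.15 to 3.67 in kidneys (8.88-fold), and S100g, the calcium-binding calbindin of the distal tubule, was 6.35-fold higher. Calb1, the larger calbindin, and Hsd11b2, which shields the mineralocorticoid receptor from glucocorticoids, were not called, at -0.04 and -0.05.

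The best known genes of the thick ascending limb were split by sample. Umod, the gene of uromodulin, the main protein of normal urine, ranged from 0.13 to 6.14 in kidneys (median 5.21) and from 0.02 to 1.32 in livers (median 0.50), so that the tissues overlapped. In 9 kidneys it lay between 4.83 and 6.14, and in the 6-month kidneys female 3, male 2 and male 3 at 0.13, 1.91 and 0.38. The difference was 3.66 ± 0.59 (adjusted p = 3.98e-05) with these samples and 4.68 without the 6 samples at 6 months, and it was not called from 6-month samples alone (2.67). Slc12a1, the salt carrier blocked by loop diuretics, had 3.42 over all samples, 4.26 without the 6 and 2.16 from 6-month samples alone. Cdh16, the kidney cadherin gene, had 4.12, 5.27 and 2.87. All 3 genes are on low-numbered probes, as are the 32 probes that were flat in these samples, whose numbers run from 140 to 1606, and the cause was not tested.

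Glomerular genes differed less. Of 6 tested, 4 were higher in kidney, against 29.5% of all genes, and the median difference was 0.35. Clic5, a chloride channel family gene abundant in podocytes and glomerular endothelium, ranged from 1.28 to 3.15 in kidneys and from -0.58 to 0.24 in livers (5.26-fold), without overlap. The podocyte transcription factor gene Wt1 was 2.68-fold higher. Ptpro and Col4a5 were called at 0.45 and 0.26, while Plce1 (0.03) and Cd2ap (0.02) were not called.

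In liver the largest differences belonged to secreted proteins of plasma and to hepatocyte enzymes. Itih4, which encodes an inter-alpha-trypsin inhibitor heavy chain of the acute phase, ranged from -0.16 to 0.46 in kidneys (median 0.12) and from 6.44 to 8.03 in livers (median 7.34), a difference of -7.16 ± 0.0954 (SE, adjusted p = 7.13e-21), or 143-fold. Mug2, a murinoglobulin protease inhibitor gene, ranged from -0.30 to 0.34 in kidneys (median 0.11) and from 5.88 to 8.24 in livers (median 7.39), or 128-fold. Ces3b, a carboxylesterase gene of the endoplasmic reticulum, ranged from 0.00 to 1.09 in kidneys (median 0.33) and from 6.52 to 7.88 in livers (median 7.36), or 109-fold. In each of these the kidneys lay close to the reference and the livers far above it. Hpx, the haem-binding hemopexin gene, ranged from -0.18 to 0.69 in kidneys (median 0.08) and from 6.29 to 7.34 in livers (median 6.65), or 89.9-fold. Alb, the gene of serum albumin, ranged from 0.01 to 1.36 in kidneys (median 0.62) and from 6.18 to 6.92 in livers (median 6.65), a difference of -5.93 ± 0.0991 (adjusted p = 1.68e-19, 61.1-fold). Further members of the 15 were Plg (plasminogen, 74-fold), Crp (C-reactive protein, 64.4-fold), Ambp (alpha-1-microglobulin and bikunin, 59.9-fold) and Apoa1 (the main protein of high-density lipoprotein, 57.7-fold). The asialoglycoprotein receptor gene Asgr1 (71.5-fold) was the cell surface protein among them. The probes named Elovl1 (-6.30) and Crym (-5.88) complete the list with 3 enzyme genes, Cyp1a2, Mat1a and Slc27a5, which are described with their pathways. Elovl1 and Crym followed each other closely across samples, at 4.1 to 5.3 and 4.1 to 5.4 in 8-week livers. Whether they measure 1 transcript was not tested, so they may not be separate members.

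Over the list of secreted plasma proteins, 26 of 51 were tested. None was higher in kidney and 25 were higher in liver (96.2%), of which 22 were at least 2-fold and 18 without overlap. Over all genes these shares in liver were 19.4%, 4.99% and 3.97%. The median difference of the list was -3.33. The median level of the list per sample was 0.08 to 0.63 in kidneys and 4.71 to 5.75 in livers. Transferrin, Trf, the iron carrier, was present in both tissues above the reference, at 2.05 to 4.42 in kidneys (median 3.16) and 5.90 to 7.81 in livers (median 7.61), or 17.9-fold. Igf1, the growth factor that the liver secretes under growth hormone, ranged from -0.47 to 0.49 in kidneys (median -0.05) and from 2.90 to 3.81 in livers (median 3.32), or 10.4-fold. Agt, angiotensinogen, was 8.13-fold higher in liver and transthyretin, Ttr, 2.81-fold. Igfbp1 was not called (-0.05, adjusted p = 0.935), and Itih2 was called at -0.21 only.

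Complement and coagulation factors followed the same direction. Of 25 genes tested, 23 were higher in liver and none in kidney, with 20 at least 2-fold and a median difference of -3.04. Of all genes 19.4% were higher in liver and 4.99% at least 2-fold. Fgg, the gamma chain of fibrinogen, ranged from 0.07 to 1.25 in kidneys (median 0.87) and from 5.55 to 6.81 in livers (median 6.13), or 40.3-fold. Hc, complement C5, ranged from 0.60 to 1.18 in kidneys (median 0.85) and from 5.04 to 6.99 in livers (median 6.20), a difference of -5.16 (adjusted p = 1.05e-16, 35.7-fold). No kidney reached a liver in either. The contact factor F12 was 47.6-fold higher in liver, C9 of the membrane attack complex 38.8-fold, the vitamin K dependent factor F9 13.6-fold and prothrombin, F2, 8.86-fold. C8a (-0.09) and Fgb (-0.28) were not called.

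Promoters of genes at both ends were set side by side because HNF1 factors, which are active in hepatocytes and in proximal tubule cells, recognise the motif GTTAAT. The 150 bases before the start site are shown 5′ to 3′ on the strand of the gene, from RefSeq on GRCm38.p6, with a match of GTTAAT or its reverse complement ATTAAC in capitals. The first 4 belong to genes higher in liver and the others to genes higher in kidney. Alb lies at chr5:90460720-90460869 on the plus strand, Mug2 at chr6:122006648-122006797 (plus), Ces3b at chr8:105083605-105083754 (plus), Hc at chr2:35061413-35061562 (minus), Slc22a6 at chr19:8617846-8617995 (plus) and Slc22a8 at chr19:8593032-8593181 (plus).
Alb: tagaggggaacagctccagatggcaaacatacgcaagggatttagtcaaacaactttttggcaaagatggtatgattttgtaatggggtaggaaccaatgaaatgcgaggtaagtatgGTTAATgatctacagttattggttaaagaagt
Mug2: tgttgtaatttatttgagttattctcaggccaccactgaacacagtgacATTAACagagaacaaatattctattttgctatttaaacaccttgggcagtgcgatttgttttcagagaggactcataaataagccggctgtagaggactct
Ces3b: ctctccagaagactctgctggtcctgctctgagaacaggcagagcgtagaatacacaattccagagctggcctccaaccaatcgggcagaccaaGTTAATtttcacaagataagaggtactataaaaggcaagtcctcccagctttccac
Hc: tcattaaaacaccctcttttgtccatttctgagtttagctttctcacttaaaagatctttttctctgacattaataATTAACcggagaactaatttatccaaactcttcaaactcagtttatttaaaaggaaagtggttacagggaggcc
Slc22a6: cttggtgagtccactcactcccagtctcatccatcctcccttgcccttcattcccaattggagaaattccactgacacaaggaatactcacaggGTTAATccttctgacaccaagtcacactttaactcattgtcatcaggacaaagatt
Slc22a8: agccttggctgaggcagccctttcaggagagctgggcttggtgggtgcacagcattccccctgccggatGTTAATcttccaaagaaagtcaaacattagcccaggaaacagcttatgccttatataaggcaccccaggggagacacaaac
The motif begins 32 bases before the start in Alb, 101 in Mug2, 56 in Ces3b, 74 in Hc, 56 in Slc22a6 and 81 in Slc22a8. These 6 were chosen because they hold it. Of 6377 genes tested, 5056 matched a window in the table, and 2.22% of these windows hold the motif on either strand, against 3.71% of all 32851 starts listed. The share was 8.61% (21 of 244) among genes at least 2-fold higher in liver and 3.04% (13 of 427) among those at least 2-fold higher in kidney. Among genes at least 8-fold higher it was 13.3% (10 of 75) in liver and 11.8% (6 of 51) in kidney. The GC box GGGCGG, counted on its own on both strands whether or not it overlapped, was in 50.9% of the windows of genes tested. It was in 29.9% of those 2-fold higher in liver, 13.3% of those 8-fold higher in liver, 53.9% of those 2-fold higher in kidney and 37.3% of those 8-fold higher in kidney. The TATA box TATAAA was in 5.28% of windows of genes tested. In liver it was in 8.61% of those 2-fold higher and 10.7% (8 of 75) of those 8-fold higher. In kidney it was in 4.45% of those 2-fold higher and 7.84% (4 of 51) of those 8-fold higher. These shares are descriptions of the letters in the window and carry no test.

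Genes of lipoproteins were higher in liver in 11 of 13 tested, against 19.4% of all genes, with a median of -2.82. Apoe, the ligand for remnant uptake, was above the reference in both tissues, at 2.31 to 5.15 in kidneys (median 3.98) and 6.44 to 7.34 in livers (median 6.91), or 8.05-fold. Apoa2 (22.3-fold), the apolipoprotein gene Apoc4 (-5.04), the lipid transfer gene Mttp (-2.46) and the sterol exporter gene Abcg5 (-2.79) went the same way. Apob, the structural protein of very low density lipoprotein, was called the other way at 0.42 (adjusted p = 0.0395, 1.34-fold). That call ended when any of 13 of the 24 samples was left out, with values then of 0.327 to 0.42.

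For bile acids, 5 of 7 genes were higher in liver, against 19.4% of all genes, and none in kidney, with a median of -1.17. Slc27a5, the bile acid-CoA ligase, ranged from 0.01 to 0.42 in kidneys (median 0.15) and from 4.88 to 6.89 in livers (median 6.13), or 58.5-fold. Cyp7a1, the rate-limiting enzyme of bile acid synthesis, ranged from -0.10 to 0.15 in kidneys (median 0.04) and from 0.43 to 1.78 in livers (median 1.30), a difference of -1.17 (adjusted p = 1.74e-09). Both were free of overlap between the tissues. The conjugating enzyme gene Baat (-2.69) and the phospholipid exporter gene Abcb4 (-2.82) were higher in liver, and the exporter gene Abcc2 (0.05) and Amacr (0.14) were not called.

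Cytochromes P450 were higher in liver in 18 of 25 genes and higher in kidney in 2, with a median of -1.77. Shares over all genes were 19.4% and 29.5%. Cyp1a2, the oxidase of caffeine and aromatic amines, ranged from -0.05 to 1.28 in kidneys (median 0.11) and from 5.88 to 7.43 in livers (median 6.95), or 96.3-fold. Cyp3a11, a broad drug oxidase, ranged from -0.09 to 0.68 in kidneys (median 0.13) and from 4.29 to 6.34 in livers (median 5.50), or 35.9-fold. Cyp2e1, which oxidises ethanol, ranged from 0.28 to 1.87 in kidneys (median 0.50) and from 2.11 to 2.95 in livers (median 2.57), or 3.42-fold. The tissues did not overlap for any of them. Cyp2f2 (-5.08), Cyp3a13 (-4.32) and Cyp2c69 (-3.83) were other large differences. The members higher in kidney were Cyp2s1, at 0.04 to 1.24 in kidneys and -2.24 to -1.01 in livers (5.31-fold), and Cyp1b1 (3.68-fold), both outside the classical hepatic drug oxidases.

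Of 27 conjugating and other xenobiotic enzymes, 15 were higher in liver, or 55.6% against 19.4% of all genes, with a median of -0.49. The 7 higher in kidney were 25.9%, against 29.5% of all genes. Besides Ces3b, the epoxide hydrolase gene Ephx1 (-2.46) and the glutathione transferase gene Gstp1 (-2.55) were higher in liver. The glutathione transferase gene Gstm5 (2.39), the sulfotransferase gene Sult1d1 (1.63) and the thiopurine methyltransferase gene Tpmt (1.47) were higher in kidney. Members thus lay on both sides, the share in kidney being near that of all genes.

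Of 22 genes of the urea cycle and amino acid breakdown, 14 were higher in liver and 3 in kidney, with a median of -0.70. Shares over all genes were 19.4% and 29.5%. Cps1, which fixes ammonia as the first step of the urea cycle, ranged from -0.19 to 0.46 in kidneys (median 0.12) and from 4.98 to 6.58 in livers (median 5.99), or 56.9-fold. Otc, the next enzyme of the cycle, was 27.4-fold higher in liver. The first enzymes of histidine and tryptophan breakdown, Hal (31.9-fold) and Tdo2 (19.1-fold), were also higher there. Hpd, of tyrosine breakdown, was above the reference in both, at 2.13 to 4.87 in kidneys (median 3.56) and 6.14 to 7.0 in livers (median 6.49), or 7.75-fold. Higher in kidney were Arg2, the mitochondrial arginase outside the hepatic urea cycle (3.07-fold), Dao, which oxidises D-amino acids (2.46-fold, from 0.21 at 8 weeks and 2.39 at 6 months), and the leucine pathway gene Ivd (0.64).

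Methyl group metabolism leaned to the liver, with 5 of 9 genes higher there, 1 higher in kidney and a median of -1.17. Shares over all genes were 19.4% and 29.5%. Mat1a, the hepatic synthase of S-adenosylmethionine, ranged from -0.16 to 0.72 in kidneys (median 0.12) and from 6.14 to 7.10 in livers (median 6.66), or 85.5-fold. Bhmt, which remethylates homocysteine with betaine, was 39.5-fold higher and Pemt, which methylates phosphatidylethanolamine, 8.02-fold. The exception was Gamt, of the last step of creatine synthesis, at 1.76 to 2.71 in kidneys (median 2.31) and 0.29 to 1.83 in livers (median 0.91), or 2.53-fold higher in kidney with a small overlap.

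Glucose genes differed in both directions. Of 18, 9 were higher in kidney (50%) and 4 in liver (22.2%), against 29.5% and 19.4% of all genes, with a median of 0.30. Without both 8-week kidneys that stand apart 6 were higher in kidney. Hk1, the hexokinase of glucose-using cells, ranged from -0.87 to 0.30 in kidneys (median -0.21) and from -4.55 to -3.53 in livers (median -3.94), a difference of 3.62 (adjusted p = 1.07e-17, 12.3-fold). Ldhb, the lactate-oxidising subunit of lactate dehydrogenase, ranged from 0.08 to 4.88 in kidneys (median 4.45) and from -1.59 to 0.64 in livers (median -0.67). Its lowest kidneys were again female 3 (0.08), male 3 (0.28) and male 2 (1.67) at 6 months, and the difference was 4.20 over all samples and 5.59 without the 6. The fructose carrier gene Slc2a5 (1.72) and the glucose carrier gene Slc2a1 (1.14) were higher in kidney. The liver glycogen synthase gene Gys2 (3.25-fold), the branching enzyme gene Gbe1 (-0.98) and the glucose carrier gene Slc2a2 (2.12-fold) were higher in liver.

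Lipid oxidation and synthesis differed less than the secreted proteins. Of 19 genes of fatty acid oxidation, ketones and peroxisomes, 8 were higher in liver and 1 in kidney, with a median of -0.15. Shares over all genes were 19.4% and 29.5%. Acaa2, the mitochondrial thiolase (2.89-fold), and Cat, the catalase of peroxisomes (2.78-fold), led in liver, and Hadh was higher in kidney (0.65). Of 14 genes of cholesterol and fatty acid synthesis, 9 were higher in liver, against 19.4% of all genes, and 1 in kidney, with a median of -0.34. Scd1, the stearoyl-CoA desaturase (3.85-fold), the sterol sensor gene Insig2 (-1.77), Elovl5 (-1.46), Dhcr7 (-1.45) and Fdft1 (-1.26) were higher in liver. Me1, the cytosolic malic enzyme, was higher in kidney (2.66-fold).

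Some genes stood above brain in both organs, and part of these differed little between kidney and liver. In 99 genes the mean was at least 4-fold above adult brain in both tissues, a group formed after the values were seen, and 43 of these had a 95% interval of kidney minus liver within 2-fold either way. Of the 99, 25 were called higher in kidney and 40 higher in liver, against 29.5% and 19.4% of all genes. The share of all genes with such an interval was not counted. Pck1, the key enzyme of glucose synthesis, averaged 6.47 in kidney, 5.98 in liver and 0.19 in brain. It ranged from 5.43 to 7.13 in kidneys and from 5.12 to 6.88 in livers, with a difference of 0.49 (adjusted p = 0.0326, interval 0.12 to 0.87), so that the tissues overlapped over most of the range, and the call ended when any of 11 of the 24 samples was left out (0.402 to 0.481). The haem synthesis gene Cpox averaged 5.58 in kidney, 5.99 in liver and 0.05 in brain (difference -0.41, interval -0.69 to -0.13). The membrane protease gene Hpn (hepsin) averaged 4.68, 4.76 and -0.80 (difference -0.08, interval -0.36 to 0.21). The peroxisomal gene Pipox, which oxidises pipecolic acid and sarcosine, averaged 4.42, 4.49 and 0.29 (difference -0.06, interval -0.33 to 0.21). Pcx, pyruvate carboxylase, averaged 4.02, 3.92 and 1.55 (difference 0.10, interval -0.19 to 0.38). For Hpn, Pipox and Pcx the interval of the difference includes 0 and lies well within 2-fold.

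Mitochondrial respiration genes were moderately higher in kidney. Of 31 subunits tested, 21 were higher in kidney (67.7%, against 29.5% of all genes) and none in liver, with a median of 0.59. At least 2-fold higher were 5 of the 31, against 8.42% of all genes. Atp5b, the catalytic subunit of ATP synthase, was 2.69-fold higher. Cox7a2l, a factor of respiratory supercomplexes, came next at 1.12, from 0.13 at 8 weeks and 2.11 at 6 months. Ndufb4 (1.06) and Ndufv1 (1.00) of complex I and Cox8a (1.03) and Cox5b (1.01) of complex IV followed. Ndufv1 ranged from 1.10 to 1.90 in kidneys (median 1.40) and from -0.13 to 0.98 in livers (median 0.58), which kept the tissues apart. Without the 6 samples at 6 months 21 subunits were called and without both 8-week kidneys 19.

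Solute carriers as a family were measured through 127 genes. Of these, 61 were higher in kidney (48%) and 28 in liver (22%), against 29.5% and 19.4% of all genes, with a median of 0.24. At least 2-fold were 38 in kidney and 7 in liver, against 8.42% and 4.99% of all genes. The share higher in liver was thus near that of all genes. Besides the tubule carriers above, the creatine carrier gene Slc6a8 was 15.8-fold higher in kidney. The nucleoside carrier gene Slc29a1 was 8.02-fold higher in liver, and the mitochondrial glutamate carrier gene Slc25a22 (-2.35) and the betaine carrier gene Slc6a12 (-2.10) were higher there too. Of 9 subunits of the vacuolar proton pump, which acidifies urine and lysosomes, 5 were higher in kidney and none in liver. The share of all genes higher in kidney was 29.5%, and the largest differences of the pump were Atp6ap1 (0.75) and Atp6v0a2 (0.73). Among 8 claudin and tight junction genes, 4 were higher in kidney and 1 in liver, against 29.5% and 19.4% of all genes. Cldn7, a claudin of the distal nephron, ranged from 0.90 to 2.67 in kidneys (median 1.85) and from -2.30 to -1.16 in livers (median -1.71), or 12-fold, with both sides away from the reference. Tjp3, a junction scaffold gene, was 18.6-fold higher in liver.

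General cell functions showed little. Of 22 ribosomal protein genes 20 were not called, with Rps15a (0.65) higher in kidney and Rpl27a (-0.31) higher in liver, and neither was called without the 6 samples at 6 months. Leaving out any of 5 single samples ended the call of Rps15a (0.552 to 0.591) and any of 14 that of Rpl27a (-0.316 to -0.238). Of 24 cell cycle genes 2 were higher in kidney and 3 in liver, against 29.5% and 19.4% of all genes. Ccnd1, cyclin D1 (2.29), and Mcm2 of the replicative helicase (1.31) were higher in kidney, and the mitotic kinase gene Aurka (-0.70) was higher in liver.

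**Figure D3:**
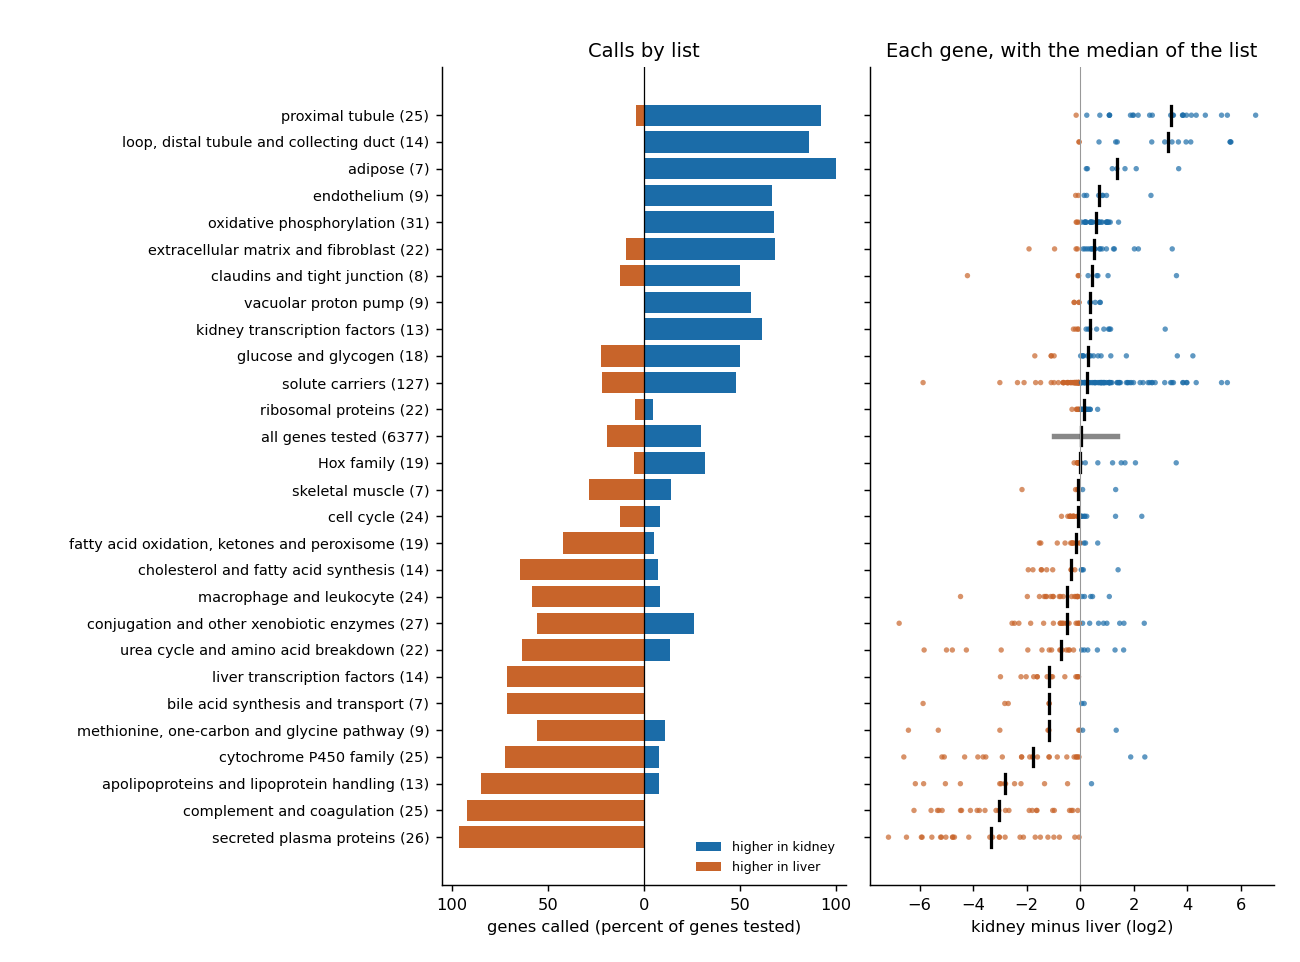
Left, percent of the tested genes of each list called higher in kidney (blue, to the right) or in liver (orange, to the left), with the number tested in brackets; right, the log2 difference of each gene, with the list median in black and, for all genes, a grey bar from the 5th to the 95th percentile. Tubule lists lie almost wholly to the right, plasma protein, complement and lipoprotein lists to the left, and ribosomal and cell cycle genes near 0.

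Transcription factors known from liver were higher in liver in 10 of 14 genes, against 19.4% of all genes. None was higher in kidney, and the median was -1.16. Nr1h3, the oxysterol receptor LXR alpha, ranged from 0.87 to 2.59 in kidneys (median 1.67) and from 3.85 to 5.57 in livers (median 4.74), or 7.9-fold and without overlap. Nr5a2, a regulator of bile acid genes, was 4.64-fold higher and Foxa2 3.05-fold, and Cebpa differed by -1.24. Among the nuclear receptors, Nr1i2 (-1.61), Rxra (-1.08), Nr1h4 (-1.04) and Ppara (-0.58) were also higher in liver. Hnf4a, a factor of hepatocytes and proximal tubule alike, was not called. It ranged from 2.60 to 4.81 in kidneys (median 4.21) and from 3.29 to 4.79 in livers (median 4.32), against a mean of 0.09 in brain, and its difference was -0.07 (adjusted p = 0.78, 95% interval -0.44 to 0.31).

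Factors known from kidney were higher in kidney in 8 of 13 genes, against 29.5% of all genes. None was higher in liver, and the median was 0.35. Irx3, a patterning gene of nephron segments, ranged from 1.69 to 2.67 in kidneys (median 2.29) and from -1.56 to -0.48 in livers (median -0.94), or 9.0-fold. The distal nephron factor gene Tfcp2l1 (1.13, from 0.19 at 8 weeks and 2.08 at 6 months) and the forkhead genes Foxc2 (1.05) and Foxc1 (0.88) were smaller. Hox genes, which keep positional identity along the body axis, were called in 7 of 19, against 48.8% of all genes, and 6 were higher in kidney, a share near the 29.5% of all genes. Hoxb7, a gene of the ureteric bud lineage, ranged from 1.22 to 2.12 in kidneys (median 1.72) and from -2.49 to -1.11 in livers (median -1.90), a difference of 3.58 (adjusted p = 7.9e-15, 12-fold). Hoxc6 was 4.16-fold higher in kidney, Hoxc5 (1.67), Hoxa10 (1.53), Hoxa7 (1.20) and Hoxb9 (0.65) were higher as well, and Hoxb13 was the reverse at -0.23, a call lost when any of 11 samples was left out (-0.228 to -0.194). The 12 others were not called, and the list median was -0.01.

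Markers of other cell types differed too, and in bulk tissue fewer cells of a type and less RNA per cell cannot be told apart. Of 9 endothelial genes 6 were higher in kidney, against 29.5% of all genes, and none in liver, with a median of 0.68. Their median level per sample was 1.52 to 2.50 in kidneys and 0.60 to 1.27 in livers. Emcn, the endothelial sialomucin endomucin, ranged from 2.35 to 4.01 in kidneys (median 3.23) and from 0.24 to 0.86 in livers (median 0.57), or 6.22-fold, while a second probe of it gave 0.56. Ramp2 (0.98) and Egfl7 (0.84) were also higher in kidney. Of 22 matrix and fibroblast genes 15 were higher in kidney and 2 in liver, with a median of 0.51. Shares over all genes were 29.5% and 19.4%. Mgp, the matrix protein that inhibits calcification, ranged from 1.73 to 2.93 in kidneys (median 2.39) and from -1.46 to -0.75 in livers (median -1.09), or 10.8-fold. The collagen genes Col4a2 (2.17) and Col6a1 (2.02) were higher in kidney, and Col18a1 (-1.92), a basement membrane collagen made by hepatocytes, and Tgfbi (-0.96) higher in liver.

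Leukocyte and macrophage genes leaned to the liver. Of 24, 14 were higher in liver and 2 in kidney, against 19.4% and 29.5% of all genes, with a median of -0.48. Cd5l, secreted by tissue macrophages such as Kupffer cells, ranged from -0.29 to 0.26 in kidneys (median -0.18) and from 3.13 to 5.99 in livers (median 4.39), or 22.2-fold. The Kupffer cell lectin gene Clec4f was 3.94-fold higher, and Itgb2 (-1.53), Marco (-1.35), C1qa (-1.03) and Adgre1 (-1.01) followed. H2-Aa of class II antigen presentation (1.08) and Laptm5 (0.46) were higher in kidney. The list's median level per sample was -0.25 to 0.02 in kidneys and 0.05 to 0.35 in livers.

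Genes listed as markers of neighbouring tissues were counted as well. All 7 adipose genes were higher in kidney, against 29.5% of all genes, with a median of 1.36. Lpl, lipoprotein lipase, ranged from 3.18 to 5.02 in kidneys (median 4.12) and from -0.26 to 0.83 in livers (median 0.43), or 12.7-fold, and Plin4 (2.09), Fabp4 (1.36), Cidea (1.19) and Adipoq (0.26) were also called. Adipoq itself lay near or below the reference in both tissues, at -0.66 to 0.12 in kidneys and -0.80 to -0.18 in livers. Ucp1, the uncoupling protein of brown fat, was 3.18-fold higher in kidney, with 8-week kidneys at 0.91 to 4.22. The median level of the list per sample was 0.30 to 1.24 in kidneys and -0.26 to 0.74 in livers, and its part in other results was not tested. Of 4 adrenal genes none was higher in kidney. In the 8-week female kidney 2, however, Star, which brings cholesterol to the steroid-making enzymes, was 3.81 against -0.12 to 0.44 in the other kidneys. The chromaffin granule gene Chgb was 3.72 there against -0.11 to 0.25, and Mc2r, the corticotropin receptor, 0.88 against -0.19 to 0.08. Muscle, pancreas and blood lists of 4 to 7 genes had 1 or 2 called each way, such as Pvalb (1.32), Cela1 (1.05), Tnnt3 (-2.18) and the erythroid gene Alas2 (-0.77). Of 5 bile duct genes Cd24a and Krt19 (0.49) were higher in kidney and Sox9 (-0.47) higher in liver, the last of them not called when any of 13 samples was left out (-0.471 to -0.386). Of 16 neuron genes, used to set the direction of the ratios, 3 were higher in kidney and 5 in liver. Shares over all genes were 29.5% and 19.4%.

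Whether the tissue difference depended on sex was tested as an interaction, the female minus male difference in kidney less that in liver, averaged over both ages. It was called in 39 of 6377 genes (0.612%), 18 positive (0.282%) and 21 negative (0.329%). The sex difference was the larger in kidney in 29 of the 39 and in liver in 10, and all 39 had the same sign at both ages. The kidney ones were 13 higher in females and 16 higher in males, and the sexes did not overlap in kidney in 25 of the 39. That separation follows in part from how the 39 were picked, and the share over all genes is not given here. Of all probes 49 were called (0.481%), 20 positive (0.196%) and 29 negative (0.284%), and without centring of the arrays, which moved the median of all probes to 0.16, 64 were called, 42 positive and 22 negative. The Y-linked Kdm5d ran from -0.96 to -0.06 in samples labelled female and from -0.10 to 0.42 in those labelled male, and the Y-linked Eif2s3y from -0.57 to 0.35 and from -0.20 to 0.69. Xist, which is transcribed from the inactive X, ran from -0.41 to 1.41 in females and from -1.60 to -0.06 in males. The sexes overlapped at all 3 probes.

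Genes higher in female kidney were led by Akr1c18, the steroid dehydrogenase that inactivates progesterone. Female kidneys ranged from 3.31 to 4.84 (median 3.70) and male kidneys from 0.63 to 2.42 (median 1.25), while livers of both sexes lay between -0.01 and 0.47, giving an interaction of 2.34 ± 0.21 (adjusted p = 5.08e-06). The highest value came from the 8-week female kidney 2 with the adrenal transcripts, and all other female kidneys still lay above all male ones. The potassium channel gene Kcnk1 ranged from 3.01 to 4.02 in female kidneys (median 3.49) and from 1.14 to 2.30 in male kidneys (median 1.66), an interaction of 2.05 ± 0.282 (adjusted p = 0.000453). Bhmt ranged from 2.74 to 4.24 in female kidneys (median 3.05) and from 0.76 to 2.14 in male kidneys (median 1.08), while liver means were 7.55 and 7.47 (interaction 1.91, adjusted p = 0.00759). The sexes thus did not overlap in kidney for this gene of the methionine pathway, while their means in liver lay close together. The carbonyl reductase gene Cbr1 ranged from 2.22 to 2.67 in female kidneys and from -0.33 to 0.58 in male kidneys (interaction 1.70). Arg2 ranged from 2.52 to 3.13 and from 1.06 to 1.38 (interaction 1.53).

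Genes higher in male kidney included several that are secreted by the liver. Inmt, a methyltransferase of small amines, ranged from 0.51 to 1.37 in female kidneys (median 1.00) and from 2.58 to 4.07 in male kidneys (median 3.29), an interaction of -2.73 ± 0.345 (adjusted p = 0.000156), with liver means of 3.49 in females and 3.13 in males. Pzp, a plasma protease inhibitor gene, ranged from -0.09 to 0.65 in female kidneys (median 0.25) and from 1.94 to 3.11 in male kidneys (median 2.40), with liver means of 6.03 and 6.08. Serpinf2, antiplasmin, ranged from 3.06 to 3.91 and from 4.71 to 6.21, with liver means of 6.29 and 6.01 (interaction -2.09). None of these overlapped between the sexes in kidney. Serpina1c (4.18 to 5.13 in female, 5.67 to 6.71 in male kidneys) and Serpina1b (3.72 to 4.60 and 5.35 to 6.32) are near-identical antitrypsin copies whose probes may share signal. Odc1, the rate-limiting enzyme of polyamine synthesis and a known androgen target in mouse kidney, ranged from 1.03 to 1.83 in female kidneys (median 1.30) and from 1.99 to 3.36 in male kidneys (median 3.07), an interaction of -1.62 (adjusted p = 0.021). It was not called without the 8-week female kidney 1 (-1.58). Agr2 (1.99 to 2.73 and 3.21 to 4.16) followed, and the steroid dehydrogenase gene Hsd17b2 (0.57 to 1.60 and 1.63 to 3.05) came close to overlapping. Without the 6 samples at 6 months the interaction of Kcnk1 (1.74), Pzp (-1.94), Odc1 (-1.18), Agr2 (-1.31) and Hsd17b2 (-1.55) was not called, and with a replicate block that of Odc1 was not called.

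In liver, Elovl3, a fatty acid elongase gene, ranged from 0.61 to 1.57 in females (median 0.93) and from 2.36 to 4.28 in males (median 3.74), an interaction of 2.77 ± 0.31 (adjusted p = 0.000106). Gstp1 ranged from -0.73 to 0.86 in female livers (median 0.23) and from 2.16 to 4.12 in male livers (median 3.04), an interaction of 2.59 ± 0.448 (adjusted p = 0.00532). Both were higher in male liver with no overlap. The reverse held for Cyp2c69, at 4.34 to 6.05 in female livers (median 5.29) and 2.31 to 3.40 in male livers (median 2.68), an interaction of -2.36 ± 0.273 (adjusted p = 0.000107). Cyp17a1, the steroid hydroxylase gene, ranged from 2.62 to 3.60 in female and from 0.79 to 1.42 in male livers (interaction -1.96). Cyclin D1, Ccnd1, was below the reference in every liver, at -2.38 to -0.02 in females and -4.27 to -3.28 in males (interaction -2.43, adjusted p = 0.000156).

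**Figure D4:**
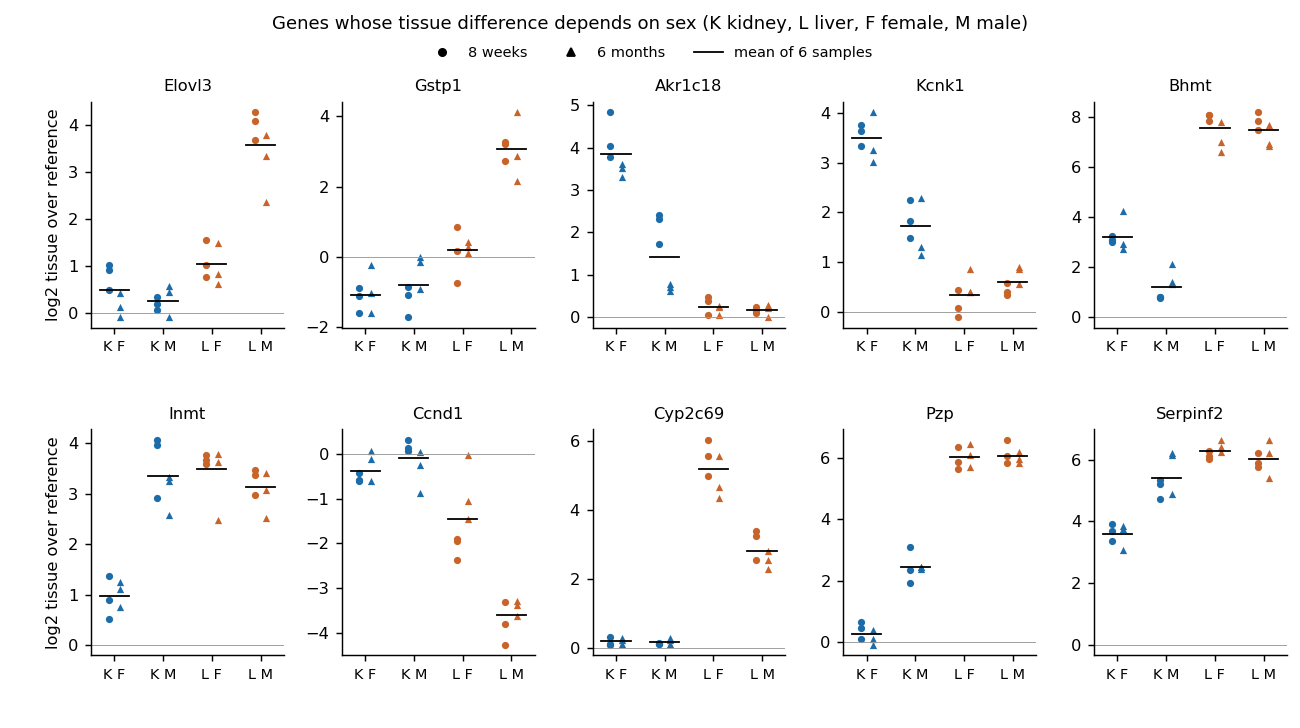
Level in each sample, log2 of tissue over reference, of the 10 genes with the largest sex difference between tissues, in kidneys of females and males and livers of females and males; circles are 8 weeks, triangles 6 months and lines the mean of 6 samples. Elovl3, Gstp1, Cyp2c69 and Ccnd1 differ by sex in liver and the other 6 in kidney.

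Whether the tissue difference changed with age was tested likewise, as 6 months minus 8 weeks in kidney less that in liver. It was called in 187 genes (2.93%), 108 positive (1.69%) and 79 negative (1.24%). The arrays of each age had a pattern of missing values of their own, so that age and array set cannot be told apart in these samples. Calls were uneven along the probe numbering, with 179 of 4645 probes numbered up to 4800 (3.85%) and 56 of 5551 above (1.01%). The difference between tissues at 8 weeks correlated with that at 6 months at 0.870 over the lower and 0.963 over the higher numbers, a description across probes that share samples and reference. Of all probes 235 were called (2.3%), 136 positive (1.33%) and 99 negative (0.971%). In 85 of them the difference between tissues was small at 1 age and at least 2-fold at the other, and 76 of these were in the lower part.

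Among genes on higher-numbered probes, 45 were called, 14 positive and 31 negative. Slc25a4, the ADP/ATP carrier of heart and muscle mitochondria, was below the reference in all livers at 8 weeks (-4.66 to -4.07, median -4.49) and ranged from -2.63 to 0.37 (median -2.08) at 6 months, an age difference of -3.05 ± 0.652 (adjusted p = 0.0109). The 6-month livers female 3 and male 3 lay near the reference at 0.29 and 0.37 and the other 4 between -2.63 and -1.96. Ucp1 ranged from 0.91 to 4.22 in 8-week kidneys (median 3.36) and from 0.28 to 1.76 in 6-month kidneys (median 0.74), an age difference of -2.20 ± 0.438 (adjusted p = 0.00648), with some overlap. Egfr, the receptor of epidermal growth factor, ranged from 3.42 to 4.46 in 8-week livers (median 3.91) and from 1.90 to 3.34 in 6-month livers (median 2.65), an age difference of 1.25 (adjusted p = 0.00348) and without overlap. Without the 6 samples at 6 months the age difference of Slc25a4 was -2.41, and Ucp1 (-2.32) and Egfr (1.29) were not called, nor were Fgfr2, Nat8l and Akr1c18. Fgfr2 (1.46), Nat8l (-1.38) and Akr1c18 (-1.04) were further calls, of which Fgfr2 was lost when any of 9 samples was left out (1.39 to 1.47).

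The other 9 of the 10 genes named for the size of their age difference were on lower-numbered probes. Some rested on probes with levels near 0 in both tissues at 1 age. Rbp4, the plasma carrier of retinol, ranged from 0.06 to 0.39 in 8-week livers and from 5.64 to 6.49 in 6-month livers, an age difference of -5.68 ± 0.23 (adjusted p = 7.64e-12). C8g of the complement attack complex ranged from -0.51 to 0.07 and from 4.09 to 5.70 (age difference -3.39). The livers lay near the reference at 8 weeks and far above it at 6 months in both genes. Tmpo, of the nuclear lamina, was 2.07 to 2.84 in 8-week kidneys and -0.29 to 0.25 in 6-month kidneys (age difference -2.85). A second probe of Tmpo gave an age difference of -0.07, with kidney minus liver at 0.77 and 0.69. Slc22a2 ranged from 2.54 to 3.15 in 8-week kidneys (median 2.90) and from 4.30 to 6.30 in 6-month kidneys (median 5.19), an age difference of 2.35. Its ages did not overlap, and at neither age was it flat in kidney. Elavl4, an RNA-binding protein gene known from neurons (2.57), Lgals9 (3.15), Terf1 (2.81), Renbp (2.43) and Sdc1 (-3.08) were the others. The probe named Terf1 followed Gstp1 sample by sample at 8 weeks and lay between -0.16 and 0.22 at 6 months. It may therefore not be a separate result.

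**Figure D5:**
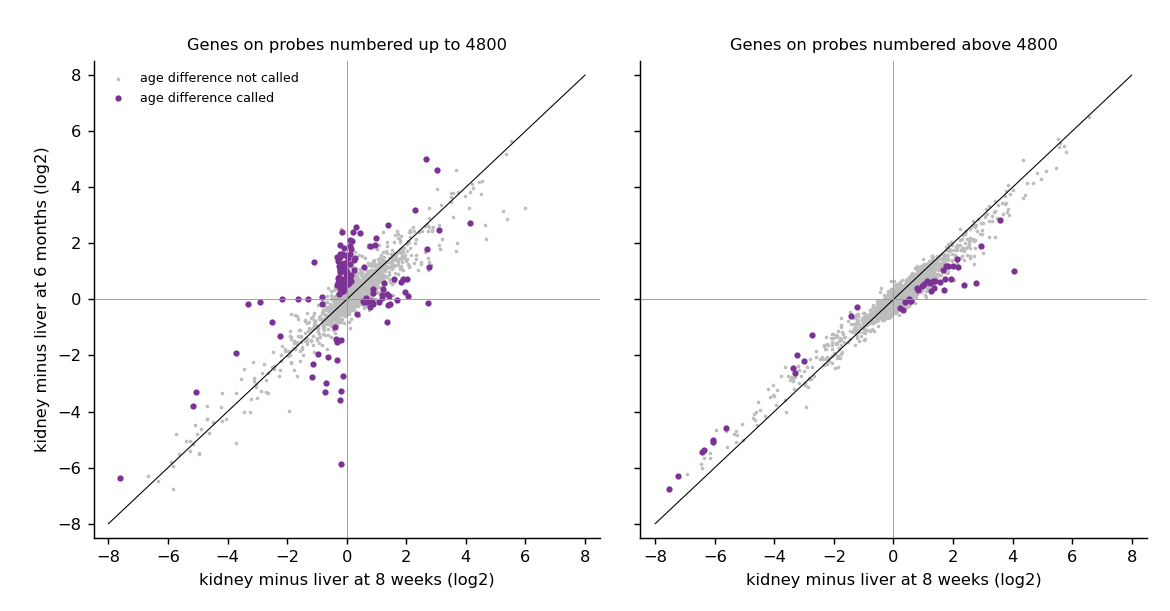
Kidney minus liver at 8 weeks (horizontal axis) against 6 months (vertical axis), in log2 units, for genes on probes numbered up to 4800 (left) and above (right); purple points are genes whose age difference was called. On the left many purple points lie on an axis, being near 0 at 1 age, and on the right the points follow the diagonal more closely.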

How the data were processed

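Total RNA of each sample was hybridised against Universal Mouse Reference RNA, per the labels. The deposited table holds 1 linear ratio per probe and array, and how the authors normalized the ratios is not given in the sources used here. Over 22 probes of neuron genes the deposited log2 ratio, centred per array, had a median of -2.35 (Cy3) and -2.27 (Cy5) in brain, against -0.22 and 0.15 in kidney. It was therefore read as reference over tissue, already turned for the dye, and inverted. Ratios of 0 (1732 of 997755 values) were taken as missing and arrays were centred on their median (-0.86 to 1.0 before). In the series 6 arrays had label lines that contradict each other, and these were not used. limma 3.58.1 in R 4.3.3 fitted 8 group means to 24 samples (16 residual degrees of freedom), and 10196 probes with at least 2 values in each group were tested. On simulated data of these 10196 probes, 93% of changes of 1 (log2) and 100% of changes of 2 were recovered for kidney minus liver, 57% and 98% for the sex difference, and 63% and 97% for the age difference. Gene names come from GEO's platform annotation (8681 probes with 1 symbol, 510 with several, 3113 with none), and 8585 matched a RefSeq gene ID. Each gene has 1 probe, the one with most values. Named genes were the 15 called with the largest differences each way, with the same sign in all 4 strata and no overlap, the 5 largest each way for sex and age, and the largest or opposing members of the lists. Members, lists and promoters were chosen with earlier results of these data known. Alternatives were other centring and scaling, single dyes, ages or sexes, other sets of samples in the fit, an array-level fit, a replicate block and leaving samples out.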

Additional observations from a re-analysis of the deposited data

Results flagged for a closer look

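The sex difference of kidney minus liver was called for 49 probes by a test of the difference itself. Each value here is that interaction, the female minus male difference in kidney less that in liver. Among genes with the larger sex difference in kidney, it was 2.34 in Akr1c18, 2.05 in Kcnk1, 1.91 in Bhmt, 1.70 in Cbr1 and 1.53 in Arg2, all higher in female kidney. Higher in male kidney were Inmt (interaction -2.73), Pzp (-2.13), Serpinf2 (-2.09), Hsd17b2 (-2.0), Serpina1c (-1.76), Serpina1b (-1.64), Odc1 (-1.62) and Agr2 (-1.57). Among genes with the larger sex difference in liver, the interaction was 2.77 in Elovl3, 2.59 in Gstp1 and 1.60 in Terf1, higher in male liver. It was -2.43 in Ccnd1, -2.36 in Cyp2c69 and -1.96 in Cyp17a1, higher in female liver. The value of Terf1 averages 3.13 at 8 weeks and 0.06 at 6 months, and its call ended when any of 3 samples was left out (1.51 to 1.58). At 8 weeks Terf1 followed Gstp1 sample by sample, at 2.755 to 3.753 against 2.736 to 3.281 in male livers. Kidneys of that age ran from -1.78 to -0.79 against -1.72 to -0.84. Whether both probes measure 1 transcript was not tested, so Terf1 may not be a separate result. Without the 6 samples at 6 months 6 of these 19 genes were not called, namely Kcnk1, Pzp, Odc1, Agr2, Hsd17b2 and Terf1.

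The age difference of kidney minus liver was called for 235 probes, again by a test of the difference. Age and array set cannot be told apart for any of them. Among the genes named in the text, negative values were -5.68 in Rbp4, -3.39 in C8g, -3.08 in Sdc1, -3.05 in Slc25a4, -2.85 in Tmpo, -2.60 in Foxa3 and -2.20 in Ucp1, followed by -1.41 in Marco, -1.38 in Nat8l, -1.04 in Akr1c18, -1.01 in Hoxc5 and -0.97 in Dhcr7. Positive values were 3.15 in Lgals9, 2.81 in Terf1, 2.57 in Elavl4, 2.43 in Renbp, 2.35 in Slc22a2, 2.18 in Dao, 1.89 in Tfcp2l1, 1.83 in Abcb4, 1.46 in Fgfr2 and 1.25 in Egfr. Of the 15 genes named for the largest tissue difference in liver, 5 were called, against 2.93% of all genes, with the liver further above kidney at 8 weeks: Mug2 at 1.23, Slc27a5 at 1.00, Alb at 0.98, Ces3b at 0.94 and Itih4 at 0.78. Other positive values were 1.02 in Itih3, 0.95 in F12 and 0.94 in Insig2. The call ended when any of 18 of 24 samples was left out for Ces3b (0.826 to 0.964), any of 14 for Itih4 (0.699 to 0.788), any of 13 for Dhcr7 (-0.988 to -0.857) and any of 9 for Fgfr2 (1.39 to 1.47). Without the 6 samples at 6 months 13 of these 30 genes were not called, namely Itih4, Ces3b, Alb, Slc27a5, Akr1c18, Ucp1, Fgfr2, Egfr, Nat8l, Itih3, Dhcr7, Insig2 and Hoxc5.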

How the results depend on the processing

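Kidney minus liver was called at 4706 of 10196 probes, and 35 of 40 alternatives lay within 1.5 times of it. The others were 2716 probes with Cy3 arrays alone, 3037 with 8-week and 2855 with 6-month samples alone, 2697 with females alone and 3028 without the 6 samples at 6 months, the last chosen after seeing the data. Leaving out 1 sample gave 4164 to 5029. The sex difference (49 probes) gave 20 with Cy3 and 24 with Cy5 arrays alone, 155 in the array-level fit, 22 and 8 with 8-week and 6-month samples alone and 31 without the 6 samples, with 37 to 57 when 1 sample was left out. The age difference (235 probes) gave 95 with Cy3 and 133 with Cy5 arrays alone, 362 in the array-level fit, 68 with females and 61 with males alone and 114 without the 6 samples, with 187 to 280 when 1 sample was left out. Genes called were 3115, and 3194 with means over all probes of a gene. Direction reversed in males alone for Inmt (0.224) and Cbr1 (-0.598), in 8-week samples alone for Elavl4 (-0.169) and in 6-month samples alone for Tmpo (-0.135, its second probe 0.69). Of 9000 values of 225 named genes under these alternatives, 8758 kept direction and call status, and 40 genes lost a call or turned at least once, among them Apob, Pck1, Hoxb13, Itih2 and Cyp4b1. Umod, Slc12a1, Cdh16, Ucp1, Tpmt and Slc2a2 were not called from 6-month samples alone, and Rbp4, C8g, Dao, Tfcp2l1 and Cebpa not from 8-week samples alone. Replicate numbers were not taken as pairs: kidney and liver of the same age, sex and number deviated together in 11 of 12 cases at r over 0.1 (0.003 to 0.706, median 0.396), and 20 of 24 samples correlated best with their own number, a hint from the data and not the design. With the replicate block 5467 probes were called for kidney minus liver (4634 of the 4706 among them), 67 for the sex difference (39 of the 49) and 240 for the age difference (196 of the 235). Named calls lost with it were Odc1 for sex and Itih4, Ces3b and Fgfr2 for age. The causes of these changes were not tested. No signal over background was used, so levels near 0 could not be told from missing signal.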

Other observations

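Values outside the comparisons above concerned single samples and labels. In the 8-week female kidney 2, the lipoprotein receptor gene Scarb1, which feeds cholesterol to steroid-making cells, was 0.92 against -2.17 to -0.98 in the other kidneys. The steroid dehydrogenase gene Hsd3b1 stood apart little there, at 4.19 against 3.93 in the 8-week female kidney 1, and livers reached 3.64. Its probe was flat in the 6 samples at 6 months, with female kidney 3 lowest at 0.11. Also flat in these samples was the probe of Slc6a18, the carrier of glycine and imino acids in proximal tubule. Among the lists of genes known to differ by sex in adult mice, the interaction of sex and tissue was called in 1 of 7 genes of male kidney (Odc1), 0 of 7 of female kidney (2 at an unadjusted p under 0.05), 2 of 6 of male liver (Gstp1 and Elovl3) and 1 of 5 of female liver (Cyp17a1) by limma over all probes, against 39 of 6377 genes (0.612%).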
